A study of Homo sapiens with 8 samples.

Results

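The genes of the respiratory chain were followed in IMR90 cells, a strain of human lung fibroblasts, that had been exposed to conditioned medium (CM) of fibroblasts entering senescence. Members were chosen by symbol: mitochondrially encoded genes, the nuclear gene families of complexes I to V and SDHA to SDHD, without pseudogenes, with a mean of at least 1 CPM (counts scaled to library size) over the 8 libraries. Of 27696 rows in the count table, 102 met this rule, of which 16 are encoded in mitochondrial DNA and 86 in the nucleus. CM came from IMR90 ER:RAS cells, which carry a RAS oncogene fused to the oestrogen receptor and switched on by 4-OHT, at day 0, 4, 7 or 10 of induction. The recipients were IMR90 fibroblasts in all 4 groups (D0, D4, D7 and D10), left for 3 days in that medium, and D0 is the control. All recipients thus received ER:RAS medium, and no group was kept in fresh medium. Each group has 2 libraries from 2 independent experiments, numbered 1 and 2 here as in the labels, so spread is known from 2 values only. Whether the recipients of 1 experiment were a single culture is not given in the sources used here.

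The respiratory chain passes electrons from NADH and succinate to oxygen through complexes I to IV and uses the resulting proton gradient to make ATP at complex V. Its subunits come from both genomes. Human mitochondrial DNA holds genes for 13 of the proteins, which belong to complexes I, III, IV and V, next to rRNAs and tRNAs, and it is transcribed as long polycistronic RNAs that are then cut. Complex II and all assembly factors are made from nuclear mRNAs that are imported as proteins. In RAS-induced senescence mitochondria are known to change in mass and function, and factors released by senescent cells can induce senescence in neighbouring cells.

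The 16 mitochondrial members were 13 mRNAs, 2 rRNAs and the tRNA MT-TT. The 86 nuclear members were 74 subunits (35 of complex I, 4 of complex II, 8 of complex III, 12 of complex IV and 15 of complex V) and 12 other rows, 8 of which are NDUFAF assembly factors of complex I. The rule matched 177 rows, 50 of which were dropped as pseudogenes and 25 for low counts. MT-ATP6 and MT-ATP8 end in P and a digit but are coding genes, and they were kept. Just inside the limit stood NDUFB2-AS1 at 1.36 and NDUFA4L2 at 1.64 mean CPM, and just outside it MT-TL1 at 0.926 and NDUFV2 at 0.873. All 102 members passed the filter on low counts before the test. Symbols are those of the count table, which uses older names for complex V (ATP5A1 for ATP5F1A, ATP5B for ATP5F1B).

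Total counts were 11708193 to 13395912 per library. Of 8 fibroblast markers, all were tested, and their summed level was 29649 to 46255 CPM in 7 libraries but 9633 CPM in D10 of experiment 2, where COL1A1 had 16415 counts against 114359 to 173035 elsewhere. Of 6 epithelial markers 4 were in the table, 0 were tested, and they summed to 0.3 to 0.8 CPM. Of 6 leukocyte markers 4 were in the table and 2 tested, with a sum of 1.5 to 3.8 CPM and PTPRC at 0 or 1 counts. The 5 endothelial markers, 2 of them tested, summed to 42.5 to 121.8 CPM, of which TEK, with 520 to 1522 counts, made up most, while PECAM1 had 0 to 13 counts. D10 of experiment 2 therefore stood apart in the fibroblast markers, and some fitted values at D10 are also given without it. Those values come from a fit that does not pair libraries by experiment, so D10 of experiment 1 is then set against D0 of both experiments. The median log2 change of the fibroblast markers at D10 was -0.50 in experiment 1 and -1.92 in experiment 2. Lower collagen expression after senescent medium is also what the paper reports. Whether this library differed by a stronger response or by quality was not tested. In bulk RNA, fewer cells and less RNA per cell cannot be told apart.

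The mitochondrial mRNAs were a larger part of the RNA after D4 and D7 medium in both experiments, and after D10 medium the experiments went opposite ways. They took 1.81% of all counts at D0 in experiment 1 and 1.81% in experiment 2. D4 medium gave shares of 2.05% and 3.00%, D7 medium 2.41% and 3.22%, and D10 medium 2.04% and 0.906%. Relative to D0 of the same experiment the share at D10 was 1.13 times as large in experiment 1 and 0.501 times as large in experiment 2. As group means the share was 1.81% ± 0.000897 for D0, 2.53% ± 0.671 for D4, 2.82% ± 0.569 for D7 and 1.47% ± 0.799 for D10 (SD, n = 2). The 95% Wilson interval of a single share was at most ± 0.00961 percentage points, which covers counting error only, so the distance between experiments was larger than counting error at D4, D7 and D10 and within it at D0.

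The nuclear genes followed another course. The 86 nuclear members together held 0.759% and 0.646% of counts at D0, 0.919% and 0.656% after D4 medium, 0.731% and 0.614% after D7 and 0.684% and 0.658% after D10 medium, in experiments 1 and 2. They were highest at D4 of experiment 1, and the remaining values stayed between 0.614% and 0.759%. Counts of mitochondrial mRNAs per count of nuclear subunits, a ratio that needs no scaling between libraries, were 2.47 and 2.92 at D0, 2.31 and 4.76 after D4 medium, 3.43 and 5.44 after D7 and 3.09 and 1.44 after D10 medium. The D7 ratio exceeded both D0 values in both experiments, whereas the D4 and D10 ratios lay on either side of them. The plot of shares by day shows these courses.

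**Figure D1:**
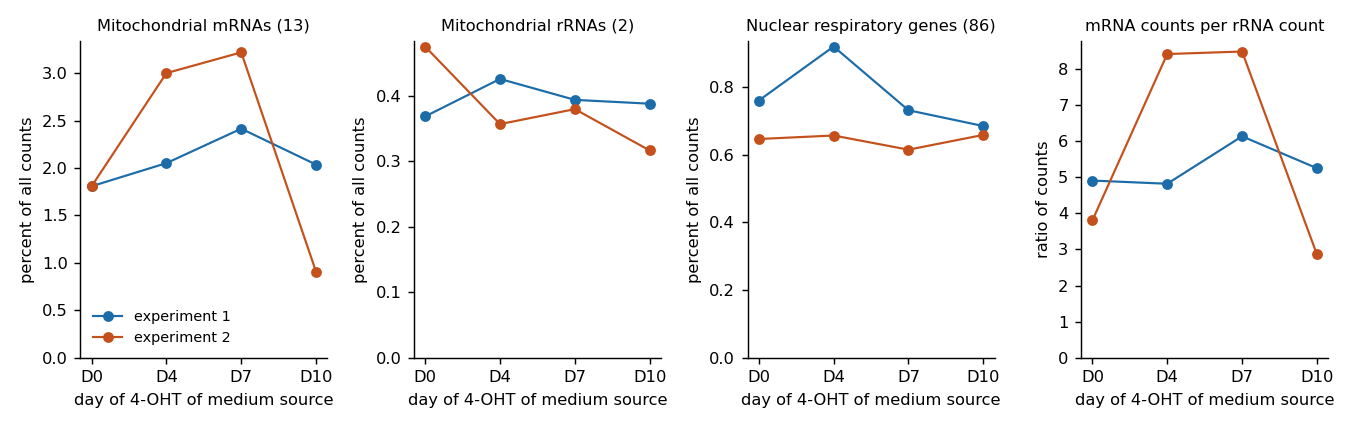
Share of all counts (percent, 3 left panels) held by the 13 mitochondrial mRNAs, the 2 mitochondrial rRNAs and the 86 nuclear members, and the ratio of mitochondrial mRNA to rRNA counts (right), by day of 4-OHT of the medium source, with 1 point per library and a line per experiment. The mRNA share of experiment 2 went from 1.81% at D0 to 3.22% at D7 and 0.906% at D10, while that of experiment 1 stayed between 1.81% and 2.41%.

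The shares of mitochondrial rRNAs and mRNAs lay on the same side of D0 in experiment 1 on each day and at D10 of experiment 2, and on opposite sides at D4 and D7 of experiment 2. MT-RNR1 (chrM:648-1601) and MT-RNR2 (chrM:1671-3229) encode the RNAs of the mitochondrial ribosome and lie at the start of the heavy-strand transcript. Together they held 0.369% and 0.475% of counts at D0, 0.426% and 0.357% after D4 medium, 0.394% and 0.380% after D7 and 0.388% and 0.317% after D10 medium. The rRNA shares were 1.16, 1.07 and 1.05 times that of D0 in experiment 1 and 0.751, 0.799 and 0.666 times in experiment 2, with D4, D7 and D10 medium. In experiment 1 there were 4.91 mRNA counts per rRNA count at D0, and 4.82, 6.13 and 5.25 with D4, D7 and D10 medium. In experiment 2 this ratio was 3.80 at D0 and 8.41, 8.48 and 2.86 with D4, D7 and D10 medium, which is 2.21, 2.23 and 0.753 times its D0 value. Libraries were made from poly(A)-selected RNA, and mitochondrial rRNAs carry only short A tails, so their counts are a part of what the cells hold. Whether the selection differed between libraries was not tested.

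For the test by gene, counts were scaled by TMM and fitted with edgeR's quasi-likelihood test over all 8 libraries, and p-values were adjusted over the 13798 genes tested by the Benjamini-Hochberg method. At an adjusted p of 0.05, 0 members were called at D4, 0 at D7 and 0 at D10, where 0%, 0% and 0.29% of all genes tested were called (0, 0 and 40 genes). At an unadjusted p of 0.05 the members passing were 0, 1 (NDUFA4L2) and 1 (NDUFAF4), against 2.96%, 4.34% and 7.94% of all genes. With the experiment number as a block, which the design of 2 experiments allows, 38, 172 and 688 genes (0.275%, 1.25% and 4.99%) were called and again 0 members, and 5, 3 and 4 members passed the unadjusted threshold (8.15%, 10.6% and 18.2% of all genes). These were UQCRH, UQCR10, NDUFA2 and ATP5G1 (higher) and NDUFA4L2 (lower) at D4, NDUFAF4 and NDUFA4L2 (lower) and MT-ND6 (higher) at D7, and NDUFAF4, NDUFB2, NDUFS7 and ATP5G3 (lower) at D10, named after their p-values were seen. DESeq2 called 44, 113 and 383 genes and 0 members, which are 0.348%, 0.823% and 2.59% of the genes for which it gave an adjusted p. Under its unadjusted threshold were 0, 1 (NDUFA4L2) and 0 members, against 2.99%, 4.25% and 7.33% of those genes. No difference in a member is thus established at this size of study. Unless stated, the intervals below come from the fit without the block, in which the difference between experiments counts as spread. The common dispersion, a measure of spread, was 0.079 without and 0.024 with the block. The intervals show how large a change the fit without the block leaves possible. The 3 comparisons share the D0 libraries.

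MT-ND1 to MT-ND6 and MT-ND4L encode the membrane arm of complex I, which takes electrons from NADH. MT-ND5 (chrM:12337-14148), an antiporter-like subunit at the far end of that arm, had 1180 and 789 CPM at D0, 1031 and 2235 after D4 medium, 1692 and 2226 after D7 and 1367 and 403 after D10 medium. Its D7 values lay above both D0 values, and its D4 and D10 values lay on both sides of them. The fitted log2 fold change was 0.73 (D4), 0.99 (D7) and -0.15 (D10), with an approximate 95% interval of -0.39 to 2.38 at D7 (edgeR adjusted p = 1). This was the largest fitted value of the mitochondrial mRNAs at D7. MT-ND4 (chrM:10760-12137), another antiporter-like subunit and the most abundant complex I mRNA, had 4150 and 3772 CPM at D0, 4537 and 6072 after D4 medium, 5767 and 6648 after D7 and 4943 and 2110 after D10 medium. All 4 D4 and D7 values were above both D0 values. Fitted log2 fold changes were 0.42, 0.65 and -0.17, with an interval of -0.36 to 1.66 at D7.

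MT-ND1 and MT-ND2, which are transcribed next to the rRNAs, had the smallest fitted log2 fold changes of the 13 at D4, 0.02 and 0.14. MT-ND1 (chrM:3307-4262) had 539 and 833 CPM at D0, 509 and 880 after D4 medium, 648 and 985 after D7 and 536 and 582 after D10 medium, and its groups overlapped on every day. MT-ND2 (chrM:4470-5511) had fitted values of 0.22 at D7 and -0.15 at D10. MT-ND3 (chrM:10059-10404) had 0.38, 0.24 and -0.28 on the 3 days, and its CPM in experiment 1 was 545 at D0 and 517 at D7. MT-ND6 is the single coding gene of the opposite strand (chrM:14149-14673, minus strand) and its mRNA is known to lack a stable A tail. It had 11.4 and 27.7 CPM at D0, 12.3 and 38.8 after D4 medium, 19.1 and 36.8 after D7 and 14.5 and 23.7 after D10 medium, the lowest level of the 13. In the fit with the block its log2 fold change at D7 was 0.57 with an interval of 0.06 to 1.08, but its adjusted p was 0.41 (edgeR with block). Counting in this table is not stated to use strand, so reads of MT-ND6 and of the transcript on the other strand cannot be separated.

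MT-CYB (chrM:14747-15887) encodes cytochrome b, the mitochondrial subunit of complex III. It had 1486 and 1153 CPM at D0, 1527 and 2130 after D4 medium, 1843 and 2660 after D7 and 1558 and 511 after D10 medium. The D4 and D7 values were above both D0 values, and D10 of experiment 2 was the lowest of the 8 libraries. Fitted log2 fold changes were 0.47, 0.77 and -0.35. MT-CO1 (chrM:5904-7445) encodes the catalytic core of cytochrome c oxidase, with the haem and copper centre where oxygen is reduced. It had 3292 and 3673 CPM at D0, 3593 and 6627 after D4 medium, 4097 and 7003 after D7 and 3696 and 1160 after D10 medium. Within experiment 2 its log2 change at D10 was -1.66, the lowest value of any member between those libraries, and within experiment 1 it was 0.17. Its fitted log2 fold change at D10 was -0.52 with an interval of -1.86 to 0.82 (edgeR adjusted p = 0.998), and 0.09 without D10 of experiment 2.

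MT-CO2 (chrM:7586-8269), which takes electrons from cytochrome c, had 2654 and 2090 CPM at D0, 3171 and 3642 after D4 medium, 3418 and 3858 after D7 and 3006 and 942 after D10 medium. MT-CO3 (chrM:9207-9990), the third core subunit, had 2899 and 2120 CPM at D0, 3605 and 3821 after D4 medium, 3472 and 3785 after D7 and 3204 and 857 after D10 medium. In both genes the 4 values at D4 and D7 lay above D0, and D10 of experiment 2 lay below every other library. Fitted log2 fold changes of MT-CO2 were 0.52, 0.62 and -0.26. Those of MT-CO3 were 0.57, 0.53 and -0.31.

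MT-ATP6 (chrM:8527-9207), the subunit of the proton channel beside the rotor, had 1056 and 981 CPM at D0, 1241 and 1604 after D4 medium, 1438 and 1762 after D7 and 1200 and 503 after D10 medium. MT-ATP8 (chrM:8366-8572), a small subunit of the stator, had 245 and 253 CPM at D0, 237 and 428 after D4 medium, 382 and 462 after D7 and 300.2 and 133 after D10 medium. MT-ATP8 and MT-ATP6 are read from 1 bicistronic mRNA, as are MT-ND4L and MT-ND4, and each pair overlaps in its coding sequence, so that counts of the partners are not independent. The overlaps are shown from the GRCh38 mitochondrial sequence (plus strand) with 30 bases on either side, in capitals from the start codon of the second gene to the stop codon of the first.
MT-ATP8 and MT-ATP6, chrM:8497-8602, overlap of 46 bases at chrM:8527-8572: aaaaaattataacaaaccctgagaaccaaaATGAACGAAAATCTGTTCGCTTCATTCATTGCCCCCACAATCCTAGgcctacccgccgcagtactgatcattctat
MT-ND4L and MT-ND4, chrM:10730-10796, overlap of 7 bases at chrM:10760-10766: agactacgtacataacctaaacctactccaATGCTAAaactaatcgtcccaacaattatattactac
Within experiment 2 the partners changed alike: MT-ATP8 by 0.76, 0.87 and -0.92 and MT-ATP6 by 0.71, 0.85 and -0.96 on the log2 scale at D4, D7 and D10. MT-ND4L changed by 0.77, 0.81 and -0.79 and MT-ND4 by 0.69, 0.82 and -0.84. Within experiment 1 at D4 the partners lay apart, with -0.05 and 0.23 for MT-ATP8 and MT-ATP6 and -0.41 and 0.13 for MT-ND4L and MT-ND4.

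Levels between genes were compared as CPM per kilobase of transcript, as means of the 2 D0 libraries. MT-CO2 was highest with 3468, followed by MT-CO3 with 3201, MT-ND4 with 2874 and MT-CO1 with 2259. MT-ND4L (1573), MT-ATP6 (1496), MT-ND3 (1288), MT-ATP8 (1203) and MT-CYB (1156) came next. MT-ND1 (718), MT-ND2 (656) and MT-ND5 (543) were lower, and MT-ND6 had 37.3. Neighbours in this order were not tested against each other. Copies of mitochondrial DNA in the nuclear genome share sequence with these genes: 49.5% of the 50-base words of MT-CO1, 46.7% of MT-ATP6, 43.6% of MT-ND2 and 30.6% of MT-CO3 also occur in another gene, so their level depends on how the authors placed such reads. The 75 rows for nuclear copies had a summed level of 149 to 162 CPM at D0, 189 and 240.4 after D4 medium, 209 and 244 after D7 and 181 and 85.6 after D10 medium, and thus moved with the mitochondrial mRNAs. Misplaced reads and transcripts of the copies cannot be told apart here.

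Seen by experiment, the 13 mitochondrial mRNAs had a median log2 change in CPM of 0.13 (D4), 0.37 (D7) and 0.18 (D10) in experiment 1, and of 0.76, 0.84 and -0.92 in experiment 2. At D7, 12 of 13 were higher than D0 in both experiments, as were 31.3% of all genes tested, and MT-ND3 of experiment 1 was the exception. At D4, 9 of 13 were higher in both experiments, against 29.8% of all genes. At D10, 11 of 13 were higher in experiment 1 and lower in experiment 2, against 19.1% of all genes, and MT-ND1 and MT-ND3 were lower in both. The groups did not overlap in CPM for 5 of 13 at D4 and 9 of 13 at D7, all of them higher than D0, while 9.73% and 13.7% of all genes lay wholly above D0. At D10 the groups overlapped for all 13, while 15% of all genes lay wholly above D0 and 16% wholly below it. These mRNAs are cut from shared transcripts and are not independent of each other.

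**Figure D2:**
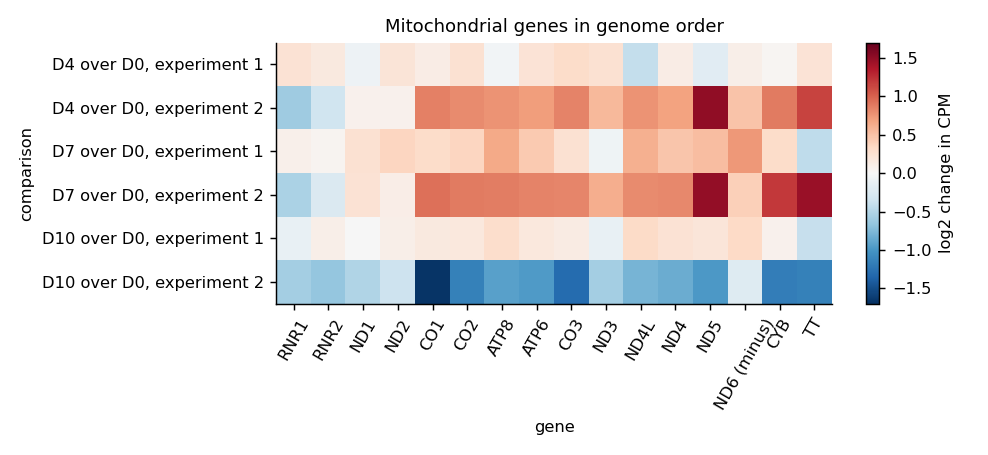
Log2 change in CPM over D0 of the same experiment (colour) for the 16 mitochondrial members in the order of their genes, with 1 row per day and experiment. MT-ND6 is the gene on the minus strand. In experiment 2 the changes from MT-CO1 onward were 0.41 or more at D4 and D7, and MT-CO1 reached -1.66 at D10.

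The differences of D10 from D0 in experiment 2 were not of 1 size along the genome. MT-CO1, MT-CO3, MT-CYB and MT-CO2 changed by -1.66, -1.31, -1.17 and -1.15 on the log2 scale. MT-ND5 changed by -0.97, MT-ND4 by -0.84, MT-ND4L by -0.79 and MT-ND3 by -0.57. MT-ND1 changed by -0.52, MT-ND2 by -0.35 and MT-ND6 by -0.22, and the rRNAs MT-RNR1 and MT-RNR2 by -0.57 and -0.65. The 86 nuclear members had a median change of -0.06 between the same libraries and all genes tested one of -0.01. Fibroblast markers in this library were low as given above, and their part in the mitochondrial values was not tested. Without this library the median fitted log2 fold change of the mitochondrial mRNAs at D10 was 0.24 in place of -0.26, and without D10 of experiment 1 it was -0.92, so that 1 library set the direction at D10. The fitted value at D10 turned from below to above 0 without D10 of experiment 2 for 10 of the 13 mRNAs, for example to 0.24 for MT-CYB, 0.34 for MT-CO2, 0.35 for MT-CO3, 0.32 for MT-ND4 and 0.47 for MT-ND5, and stayed below 0 for MT-ND1, MT-ND2 and MT-ND6. Of the 74 nuclear subunits, 31 changed sign without it. This fit sets D10 of experiment 1 against D0 of both experiments, so its signs can differ from those within experiment 1. Within experiment 1, MT-ND2 and MT-ND6 changed by 0.10 and 0.34 and MT-ND1 and MT-ND3 by -0.01 and -0.13, and 65 of the 74 nuclear subunits were lower. At D4 the median of the mitochondrial mRNAs was 0.42 with all libraries and 0.07 without D4 of experiment 2.

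**Figure D3:**
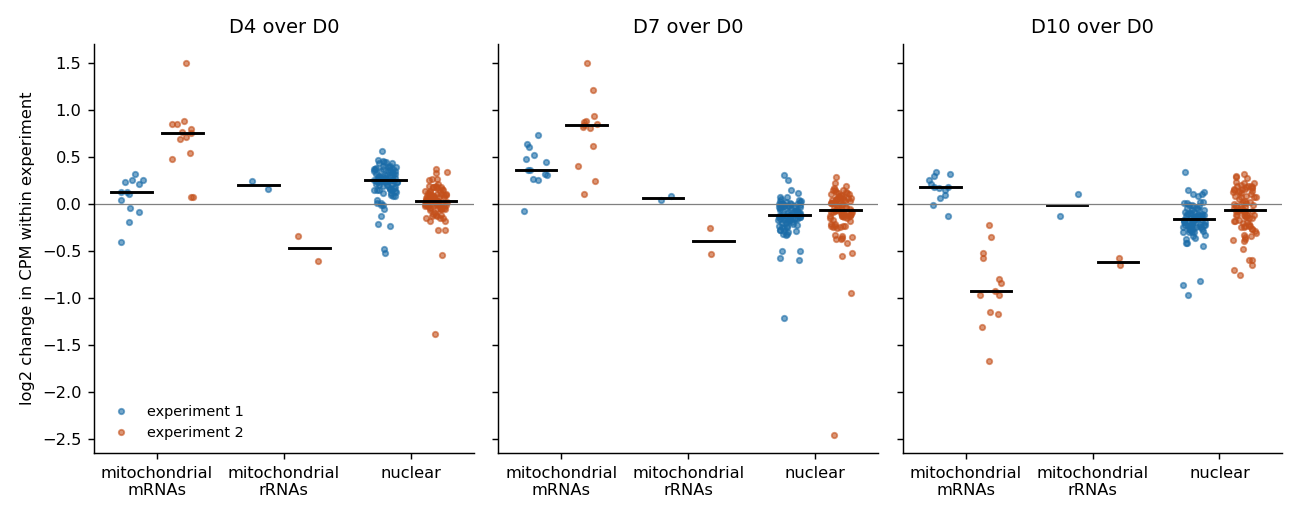
Log2 change in CPM over D0 of the same experiment (vertical axis) for mitochondrial mRNAs, mitochondrial rRNAs and nuclear members at D4, D7 and D10. Each point is a gene, colours mark the experiments and black lines the medians, which for the mRNAs were 0.13 and 0.76 for D4, 0.37 and 0.84 for D7, and 0.18 and -0.92 for D10.

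The fitted changes of nuclear subunits were smaller. Their median fitted log2 fold change over 74 genes was 0.17 (D4), -0.09 (D7) and -0.12 (D10), beside 0.01, 0.00 and 0.00 over all genes tested. At D4, 71 of 74 had a value above 0. Within experiment 1 the median change was 0.26 at D4, with 72 of 74 higher, -0.11 at D7 and -0.15 at D10. Within experiment 2 it was 0.04, -0.05 and -0.06, with 48 of 74 higher at D4. For all 86 nuclear members, 50 were higher at D4 in both experiments (29.8% of all genes), 46 lower at D7 in both (31% of all genes) and 48 lower at D10 in both (32.3% of all genes). In CPM, the D4 group lay wholly above D0 for 3 of 86 and wholly below it for 3, against 9.73% and 12.6% of all genes, and for all other nuclear members the D4 and D0 values overlapped. Leaving out D4 of experiment 1 turned the fitted D4 median of the nuclear members from 0.16 to -0.16. Leaving out D0 of experiment 1 turned those of D7 and D10 from -0.10 and -0.13 to 0.11 and 0.075. Without D10 of experiment 2 the D10 median of the nuclear members was 0.01. These fits do not pair libraries by experiment, and D0 levels of nuclear members were higher in experiment 1 by a median of 0.36. Set against D0 of the same experiment, their medians for D4, D7 and D10 were 0.25, -0.12 and -0.16 in experiment 1. Those of experiment 2 were 0.035, -0.068 and -0.064. The turns in sign thus appeared in unpaired fits and not within either experiment, and their cause was not tested.

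The experiments differed from each other already at D0. At D0 the nuclear subunits were higher in experiment 1 by a median of 0.38 on the log2 scale, with 67 of 74 higher, which exceeds their median change on any day. This difference and the higher values at D4 of experiment 1 went with transcript length over all genes: 1559 tested genes with a principal transcript shorter than 1000 bases were higher by a median of 0.17 in D0 of experiment 1 and changed by 0.20 at D4 of experiment 1, while 5617 genes with transcripts over 3000 bases changed by -0.12 at D4 of experiment 1. Of the 74 nuclear subunits, 44 have transcripts shorter than 1000 bases. Their median change at D4 of experiment 1 was 0.30, and that of the 6 over 3000 bases was 0.24. The part of transcript length in these values was not tested.

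By complex, the medians of the nuclear subunits at D4 were 0.15 for complex I, 0.09 for complex II, 0.20 for complex III, 0.18 for complex IV and 0.20 for complex V. At D10 they were -0.15, -0.04, -0.00, -0.12 and -0.11. The mitochondrial subunits of the same complexes stood at 0.38 for complex I, 0.55 for complex IV and 0.45 for complex V at D4, and at 0.51, 0.62 and 0.71 at D7, where the nuclear subunits of these complexes stood at -0.09, -0.10 and -0.06. The difference of class medians, 13 mitochondrial mRNAs less all 86 nuclear members, was 0.26 (D4), 0.74 (D7) and -0.13 (D10). It turned to -0.37 at D4 without D4 of experiment 2 and to 0.23 at D10 without D10 of experiment 2, and stayed between 0.43 and 1.06 at D7 whichever library was left out. The fits behind these values do not pair libraries by experiment. Within experiment 1 the medians of mitochondrial mRNAs and nuclear members were 0.13 and 0.25 at D4 and 0.18 and -0.16 at D10. Members are not replicates, so these differences carry no test.

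**Figure D4:**
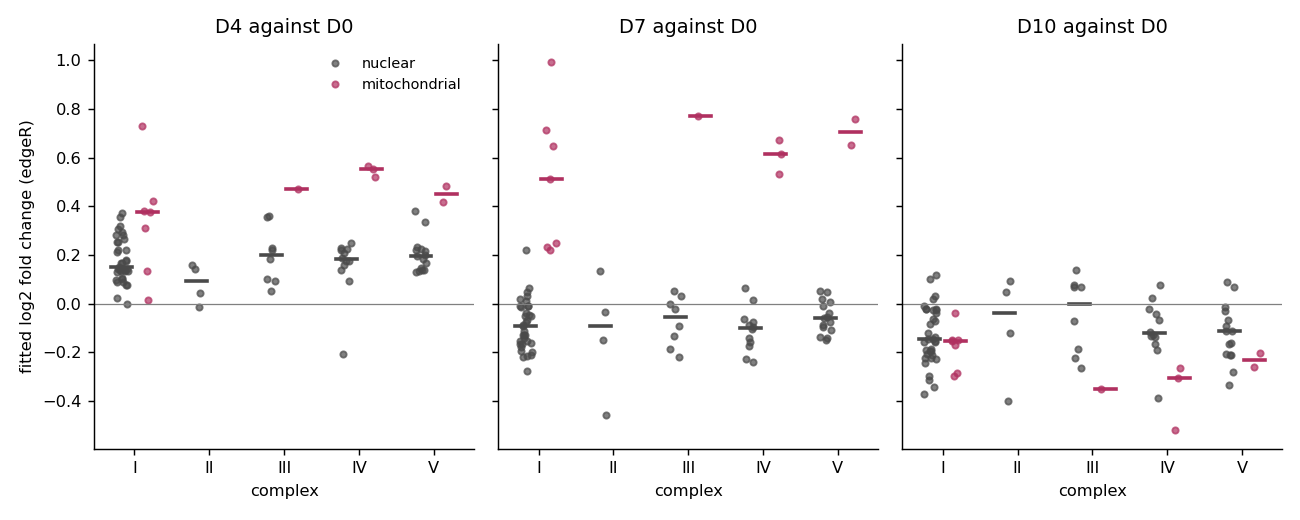
Fitted log2 fold change against D0 (edgeR, vertical axis) of nuclear subunits and mitochondrial mRNAs of each complex at D4, D7 and D10. Points are genes and lines are medians, and at D7 the mitochondrial medians were 0.51 to 0.77 while the nuclear medians were between -0.10 and -0.06.

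Among nuclear subunits of complex I, NDUFS1 carries iron-sulphur clusters in the peripheral arm and NDUFV1 binds NADH and flavin. NDUFS1 had 99.8 and 104 CPM at D0, 99.1 and 125 after D4 medium, 119 and 118 after D7 and 109 and 110 after D10 medium. Its D7 and D10 values were above both D0 values, the D10 ones by a fitted log2 fold change of 0.10 with an interval of -0.37 to 0.58. NDUFV1 had 108 and 81.9 CPM at D0 and 95.3 and 77.6 at D10, with a fitted value of -0.14, and 0.01 without D10 of experiment 2. The highest fitted value at D10 among the 35 subunits was that of NDUFB5, 0.12, and the lowest that of NDUFS7, -0.37 with an interval of -1.32 to 0.58, and -0.09 without D10 of experiment 2. NDUFS7 had 54.6 and 32.4 CPM at D0 and 40.9 and 26.2 at D10, and 49.1% of its exon bases lie opposite another gene. No NDUFV2 value is given because that row fell below the limit of the rule.

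NDUFAF4, an assembly factor of complex I, had the lowest p of all members at D10. It had 17.4 and 15.7 CPM at D0, 16.0 and 16.4 after D4 medium, 12.3 and 12.1 after D7 and 9.82 and 12.1 after D10 medium, so that the D7 and D10 groups lay below D0. Its fitted log2 fold change at D10 was -0.59 with an interval of -1.12 to -0.06 (edgeR adjusted p = 0.508, and 0.119 with the block), and -0.75 without D10 of experiment 2. It is named for its p. The 8 NDUFAF genes together had medians of 0.01, -0.19 and -0.13.

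NDUFA4L2, a paralogue of NDUFA4 known to be induced under hypoxia, is close to the limit of the rule. It had 34 and 38 counts at D0, 25 and 13 after D4 medium, 15 and 5 after D7 and 19 and 20 after D10 medium. All D4, D7 and D10 values were below both D0 values in CPM. Its fitted log2 fold change was -0.95 at D4, -1.87 at D7 with an interval of -3.21 to -0.52, and -0.86 at D10 (edgeR adjusted p = 0.71 at D7, and 0.122 with the block). NDUFA4 itself, now counted as a subunit of complex IV, had 146 and 112 CPM at D0 and 122 and 115 at D10, with a fitted value of -0.13.

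Complex II oxidises succinate and links the chain to the TCA cycle, and it has no mitochondrial gene. SDHA, its flavoprotein, had 89.1 and 61.2 CPM at D0, 96.6 and 71.1 after D4 medium, 90.2 and 75.0 after D7 and 90.3 and 69.8 after D10 medium, and its groups overlapped on every day. SDHB, the iron-sulphur subunit, had a fitted value of 0.05 at D10. SDHD, a membrane anchor, had 21.9 and 27.4 CPM at D0, 28.2 and 22.7 after D4 medium, 15.4 and 20.5 after D7 and 20.0 and 17.4 after D10 medium. Its D7 and D10 values lay below both D0 values, with fitted log2 fold changes of -0.46 (interval -1.04 to 0.13) and -0.40 (interval -0.98 to 0.18), and edgeR gave adjusted p-values of 1 and 0.912. The groups of nuclear members lay wholly below D0 for 9 of 86 at D7 and 9 of 86 at D10, against 15.2% and 16% of all genes.

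In complex III, UQCRC1, a core protein, had 187 and 136 CPM at D0 and 172 and 166 at D10, and the Rieske protein UQCRFS1 had 54.9 and 46.8 at D0 and 50.4 and 46.5 at D10. The highest fitted value at D10 was 0.14 for UQCRB and the lowest -0.26 for UQCR11, which was 0.03 without D10 of experiment 2. In complex IV, COX4I1, the main isoform of a regulatory subunit, had 324 and 233 CPM at D0, 386 and 237 after D4 medium, 297 and 228 after D7 and 297 and 245 after D10 medium. COX5A, COX6A1 and COX8A had fitted values of 0.03, -0.14 and -0.19 at D10, and of 0.11, 0.02 and 0.05 without D10 of experiment 2. The latter values are against D0 of both experiments. Within experiment 1 all 12 nuclear subunits of complex IV were lower at D10 than at D0. COX7A2 had the highest, 0.08. COX7A1, the isoform typical of heart and muscle, had the lowest with -0.39 and an interval of -1.21 to 0.44, and -0.06 without D10 of experiment 2, at 4.52 and 4.08 CPM at D0 and 4.12 and 2.45 at D10. COX4I2 was not analysed here. In complex V, the catalytic subunits ATP5A1 and ATP5B were the most abundant nuclear members of the named set. ATP5A1 had 490.1 and 375 CPM at D0 and 456 and 346 at D10. ATP5B had 770.4 and 526 at D0 and 686 and 475 at D10. ATP5J had the highest fitted value at D10 with 0.09 and ATP5G3, a ring subunit, the lowest with -0.34, which was -0.09 without D10 of experiment 2.

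The direct contrast of D10 with D4 in the same fit called 1 of 13798 genes (0.00725%) and 0 members by edgeR, with 2 members (NDUFAF4 and MT-TT) under an unadjusted p of 0.05 (5.7% of all genes). With the block it called 352 genes (2.55%) and 0 members. Under the unadjusted threshold with the block, which 18.3% of all genes passed in either direction, 29 members were lower at D10, 27 of them nuclear, as were 9.26% of all genes. DESeq2 called 149 genes (0.938%) and 0 members, with 2 members (MT-CO1 and MT-TT, both lower) under its unadjusted threshold (5.11% of all genes). Among nuclear members, 52 of 86 were lower at D10 than at D4 in both experiments, against 28.1% of all genes, with a median change of -0.43 in experiment 1 and -0.08 in experiment 2. Over all genes tested, transcripts under 1000 bases had medians of -0.26 and 0.07 in experiments 1 and 2. Those over 3000 bases had 0.20 and -0.06. Nuclear subunits of these lengths had -0.48 and -0.33 in experiment 1. The part of transcript length in this contrast was not tested. The lowest adjusted p with the block was that of UQCR10, a small subunit of complex III named after its value was seen. It had 129 and 76.1 CPM at D4 and 82.5 and 54.7 at D10. Without the block the log2 difference was -0.58 with an interval of -1.44 to 0.28 (edgeR adjusted p = 0.973). With the block it was -0.56 (edgeR with block, unadjusted p = 0.0030, adjusted p = 0.0766). For the mitochondrial mRNAs the median of D10 less D4 was 0.04 in experiment 1 and -1.67 in experiment 2.

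The 10 lists of mitochondrial genes outside the members, with 191 tested entries, held 0 genes called by edgeR on any day. With the block, 2 rose at D10 (TFB1M and SQOR, named for this result), where 4.99% of all genes tested were called. The medians of the lists ranged from -0.05 to 0.27 at D4, -0.28 to 0.13 at D7 and -0.11 to 0.15 at D10. Of 14 genes for transcription and replication of mitochondrial DNA, TFB1M, which methylates the small mitochondrial rRNA, had 18.1 and 13.2 CPM at D0 and 30.8 and 43.1 at D10. Its D10 values lay wholly above D0, as did those of 15% of all genes tested. Its log2 fold change was 1.24 with an adjusted p of 0.112 without and 0.0166 with the block (edgeR), and DESeq2 called it too. SQOR, which passes electrons from sulphide to ubiquinone, had 31.8 and 28.8 CPM at D0 and 61.9 and 77.9 at D10, with a log2 fold change of 1.21 and adjusted p-values of 0.0923 and 0.0086. TFAM, the packaging and transcription factor of mitochondrial DNA, had 14.4 and 18.6 CPM at D0, 12.0 and 21.0 after D4 medium, 13.2 and 19.0 after D7 and 14.9 and 21.7 after D10 medium, with groups that overlapped on all days. LRPPRC, which stabilises mitochondrial mRNAs, had fitted log2 fold changes of 0.07, 0.07 and 0.14. NRF1, which acts on many nuclear respiratory genes, had 0.07, 0.16 and 0.05. The coactivator PPARGC1A had 2 to 11 counts and PPARGC1B 0 to 10 counts per library, and neither was tested. The electron carrier CYCS had 35.8 and 46.5 CPM at D0 and 51.6 and 61.1 at D4, with a fitted value of 0.45 at D4 (edgeR adjusted p = 1). CYC1 had fitted values of 0.28, -0.05 and 0.13. The 78 mitochondrial ribosomal protein genes had medians of 0.10, -0.10 and -0.03.

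Windows of 250 bases before to 50 bases after the RefSeq start (GRCh38.p14) were found for 69 of the 86 nuclear members and searched on both strands for CCGGAAG, a core that ETS factors such as GABP bind. These letters occurred in 20 of 69 windows and in 10.7% of 27305 windows of all genes. The windows shown are the 2 that hold the letters and no annotated exon base before the start, as 150 bases before the start with the motif in capitals, on the strand of the gene. They belong to NDUFAF4, described above, and to NDUFB7, a subunit of complex I.
NDUFAF4, chr6:96897892-96898041, minus strand: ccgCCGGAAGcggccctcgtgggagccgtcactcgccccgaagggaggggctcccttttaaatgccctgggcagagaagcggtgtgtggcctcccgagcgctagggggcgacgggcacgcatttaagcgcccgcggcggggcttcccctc
NDUFB7, chr19:14572067-14572216, minus strand: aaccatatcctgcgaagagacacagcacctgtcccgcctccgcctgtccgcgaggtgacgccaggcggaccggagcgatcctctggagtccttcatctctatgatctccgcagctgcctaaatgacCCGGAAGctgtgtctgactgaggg
A match is a description of the letters and says nothing about binding in these cells.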

How the data were processed

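The table the authors deposited holds raw read counts for each gene, made from poly(A)-selected, stranded libraries of total RNA. Their processing notes name STAR 2.5, DESeq2 and GRCh38, and the strand setting of the counting is not given in the sources used here. Columns headed RPM in the same table were not used, and a column headed DO was taken as D0 replicate 1. Positions are GRCh38 from GENCODE 29, in which all 102 members were found, 95 with the same identifier version. Genes were filtered with filterByExpr, libraries scaled with TMM, and edgeR 4.0.16 (R 4.3.3) was fitted by group to all 8 libraries of 11708193 to 13395912 counts. Intervals are the log2 fold change plus or minus the t quantile times a standard error taken from the F statistic, and are approximate. CPM used the TMM library sizes, and log2 CPM a prior count of 2. DESeq2 1.42.0, other filters and scalings, a replicate block and leaving out libraries were the alternatives. Libraries were paired by the replicate number in their labels, which was taken as the number of the experiment. The correlation over genes of the deviations of libraries with the same number was 0.418 to 0.722 for the 6 pairs of groups. P-values measure the spread between libraries. The methods were run on simulated counts, in which the changes were larger than most fitted changes of the members. Members, lists and the rule for named genes (all coding and rRNA mitochondrial members, called nuclear members, the highest and lowest subunit of each complex at D10, and genes by role) were chosen with earlier results of these data known. Sharing was measured as 50-base words of the principal transcript found in other genes. Figures were drawn with matplotlib 3.10.9 in Python 3.11.15.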

Additional observations from a re-analysis of the deposited data

Results flagged for a closer look

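The nuclear genes were flagged because their median change had 1 sign in both experiments on 1 day and the opposite sign in both on another. The median fitted log2 fold change of all 86 nuclear members was 0.16 at D4, -0.10 at D7 and -0.13 at D10, and that of the 74 subunits was 0.17 at D4, -0.088 at D7 and -0.12 at D10. The difference between days was not tested for these medians, and among single members the contrast of D10 with D4 called 0. The test for a sample far from the others of its group needs at least 4 samples, so it was not run on these groups of 2.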

How the results depend on the processing

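No member was called under any alternative, so the block and the other settings changed no call of a member. The count of all genes called changed: at D4 from 0 to 44 with DESeq2, 21 without a filter and 38 with the replicate block. At D7 it went from 0 to 113, 93 and 172 under the same settings. At D10 it went from 40 to 383, 371 and 688, to 20 with at least 10 counts in every library and to 0 with only the 2 groups compared, and leaving out each library gave 0 (either D0 library), 11 (D10 of experiment 2), 14 (either D7 library), 15 (either D4 library) and 155 (D10 of experiment 1). Leaving out a library gave 0 at D4 and 0 at D7. The contrast of D10 with D4, whose alternatives were added after seeing the data, called 1 gene, 6 with DESeq2's size factors, 149 with DESeq2, 147 without a filter and 352 with the block, and 0 (without either D4 library) to 83 (without D10 of experiment 1), with 2 without either D7 library. Leaving mitochondrial counts out of the library sizes gave 0, 0, 40 and 1 genes for these comparisons. The median of the nuclear members ranged with the library left out from -0.16 (D4 of experiment 1) to 0.44 (D4 of experiment 2) at D4, from -0.27 (D0 of experiment 2) to 0.11 (D0 of experiment 1) at D7 and from -0.26 to 0.075 at D10 (the same libraries), and so changed sign on each day. The fits with a library left out have no block, so they compare libraries of unlike experiments. Within each experiment this median was above 0 at D4 and below 0 at D7 and D10. Median differences between mitochondrial mRNAs and nuclear members ranged from -0.37 (without D4 of experiment 2) to 0.82 at D4, from 0.43 to 1.06 at D7 and from -0.68 to 0.23 at D10. The ratio of the mitochondrial share to D0 was 1.31 at D4, 1.44 at D7 and 0.818 at D10, and 1.11 to 1.51, 1.26 to 1.61 and 0.548 to 1.09 without a library. The cause of these changes was not tested.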

Other observations

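MT-TT, the tRNA gene that follows MT-CYB (chrM:15888-15953), had 5.95 and 6.84 CPM at D0, 6.98 and 15.4 after D4 medium, 4.35 and 19.1 after D7 and 4.51 and 3.00 after D10 medium. NDUFB2-AS1, an RNA on the strand opposite NDUFB2, had fitted log2 fold changes of -0.34, -0.81 and -0.86 (D4, D7, D10), none of them called by edgeR, with or without the block, or DESeq2. Of its exon bases 42.7% lie opposite ADCK2 and NDUFB2, and as the counting is not stated to use strand, its reads and theirs cannot be told apart. COX7A2L, which takes part in supercomplexes of the chain, had 0.03, -0.24 and 0.16.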
